A study of Mus musculus with 6 samples.

Results

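The genes described here are 10 genes of the cellular defence against oxidants and reactive chemicals: *Nqo1*, *Akr1b8*, *Gclc*, *Gclm*, *Slc7a11*, *Txnrd1*, *Srxn1*, *Gpx2*, *Gsta3* and *Hmox1*. They were found by matching Ensembl identifiers, and all 10 were among the 55414 gene rows of the count table. The list was drawn up with the TNF and PBS values of this same table known, so the levels and fold changes of these 10 genes are a description and receive no p-value of their own. RNA had been sequenced from Paneth cells (PCs), the granule-rich secretory cells of the crypt base, which were sorted from the small intestine of C57BL/6J mice labelled IFNAR1 KO. All 6 mice thus carried the knockout of the type I interferon receptor gene *Ifnar1*, also the controls. The 3 PBS mice had received phosphate-buffered saline and the 3 TNF mice tumour necrosis factor, a cytokine, and PCs were taken from each mouse 15 h later. No wild-type mice, ages or sexes are given in the labels.

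NRF2, the product of *Nfe2l2*, is a transcription factor that the adaptor protein KEAP1 marks for degradation in unstressed cells. When oxidants or electrophiles modify KEAP1, NRF2 accumulates, pairs with small MAF proteins and binds antioxidant response elements (AREs) near its target genes. These targets make glutathione, recycle thioredoxin, reduce quinones and aldehydes and supply the NADPH that these reactions consume. In the gut epithelium the same enzymes handle food-derived chemicals and oxidants released during inflammation.

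The ARE core is usually written TGACNNNGC. This motif was searched on both strands in the 300 bases from 250 before to 50 after the annotated start of each gene (GRCm39 genome, canonical GENCODE transcript). It was present for 4 of the 10 genes and in 12.5% of 21614 protein-coding genes. In a longer window of 1100 bases, from 1000 before to 100 after the start, it was present for 6 of 10 genes and in 32.1% of all genes. Among 96 genes of the wider redox list described below, 15.6% had it in the 300 bases and 34.4% in the 1100 bases. The 5 matches closest to a start are shown, because they are the stretches in which these genes share letters. Each line runs 5′ to 3′ on the strand of its gene, with the match in capitals. All but that of *Gsta3* lie on the opposite strand and read as the reverse complement.
Gclm: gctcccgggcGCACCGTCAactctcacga
Txnrd1: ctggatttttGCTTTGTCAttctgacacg
Srxn1: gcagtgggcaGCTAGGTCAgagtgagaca
Gsta3: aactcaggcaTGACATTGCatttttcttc
Gpx2: cctgttttttGCTAAGTCAtcccgggaat
The lines lie at chr3:122039062-122039090 for *Gclm*, chr10:82694938-82694966 for *Txnrd1*, chr2:151947462-151947490 for *Srxn1*, chr1:21310678-21310706 for *Gsta3* and chr12:76842265-76842293 for *Gpx2*. The match begins 54 bases before the start of *Gclm*, 65 before that of *Txnrd1* and 118 before that of *Gsta3*, and at base 29 and base 44 of the transcribed sequence of *Srxn1* and *Gpx2*. *Slc7a11* had a match only further out, 870 bases before its start. No match was found in either window for *Nqo1*, *Akr1b8*, *Gclc* or *Hmox1*. These are matches of letters, and no binding was measured.

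The libraries were compared before the genes. They held 12747484 to 17039511 counts each. TNF replicate 1 stood apart from its group: across the 13026 tested genes its log2 levels correlated at 0.884 and 0.883 with TNF replicates 2 and 3, but at 0.937 to 0.945 with the PBS libraries. It was kept in its labelled group, and fold changes of redox genes are given with and without it. It was singled out from these same levels, as the TNF library most like PBS. Setting it aside favours small p-values in advance, so every p-value and count without it is a description only. Sample weights in limma-voom, an alternative used below, are also estimated from these same levels. Their p-values and counts are therefore a description only too. TNF replicate 3 had 669 counts from 4 Y-linked genes, PBS replicate 3 had 846 such counts, and no other library had more than 2. Beside its Y-linked counts TNF replicate 3 had *Xist* at 192 CPM, while PBS replicate 3 had it at 9.40 CPM. *Xist* was at 371 and 955 CPM in PBS replicates 1 and 2, and at 1177 and 355 CPM in TNF replicates 1 and 2. Whether TNF replicate 3 held material of more than 1 mouse was not tested. *Ifnar1* was counted at 5.19 to 9.55 CPM (a count scaled to the size of its library after adjustment by a scaling factor) in PBS and 5.18 to 12.7 CPM in TNF. Without a wild-type library this level checks nothing about the knockout. *Lyz1*, the lysozyme gene that defines PCs, took 16.1% to 20.2% of the counts in every library.

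Markers of PCs and of other cell types were summed per library. The 9 PC markers summed to 388642 to 476712 CPM in PBS and to 652052, 283396 and 456578 CPM in TNF replicates 1 to 3. The scaling factors behind these CPM ran from 0.798 in TNF replicate 1 to 1.20 in TNF replicate 2. Such sums are therefore not shares of all counts. The 11 enterocyte markers summed to 341 to 385 CPM over the PBS libraries. For TNF replicates 1 to 3 their sums were 290.4, 143 and 102 CPM. *Apoa1*, *Apoa4*, *Alpi* and *Lct* had 0 counts in TNF replicate 3, and were below every PBS library in TNF replicate 1 as well. *Apoa1* had 0.425 CPM in TNF replicate 1, against 8.52 to 14.9 CPM for PBS. *Apob*, *Fabp2*, *Sis*, *Anpep* and *Slc5a1* were also below their PBS ranges in TNF replicates 2 and 3. *Fabp1* stayed within its range in both, and *Mttp* only in TNF replicate 2. The 7 goblet cell markers summed to 10961 to 11936 CPM in PBS and 6952 to 14072 CPM in TNF, and the 6 stem cell markers to 2554 to 3144 CPM in PBS and 797 to 4692 CPM in TNF, with the lower values in TNF replicates 2 and 3. Tuft cell markers (444 to 1583 CPM in PBS, 539 to 1079 in TNF), enteroendocrine markers (47.7 to 153 and 37.4 to 102) and immune cell markers (98.0 to 138 and 124 to 134) overlapped between groups. Markers within a sum differed. Of the PC markers, *Itln1*, *Ang4*, *Mptx2* and *Clps* were below their PBS ranges in TNF replicates 2 and 3. *Mmp7* and *Pla2g2a* were above theirs in both. *Defa24* and *Defa30* were below only in TNF replicate 2, and within range in TNF replicate 3. *Lyz1* was below its range in TNF replicate 2 and above it in TNF replicate 3. *Olfm4*, most of the stem cell sum in PBS at 1925 to 2374 CPM, had 233 and 272 CPM in TNF replicates 2 and 3. *Ascl2*, *Smoc2* and *Axin2* also fell below PBS there. *Lgr5* did so only in TNF replicate 3, and *Slc12a2* in neither. Among goblet cell markers *Spink4*, the largest, was below its PBS range only in TNF replicate 2, where *Muc2* was above its own. *Fcgbp*, *Tff3*, *Clca1*, *Zg16* and *Klk1* were below theirs in TNF replicates 2 and 3. The part of these shifts in the results below was not tested. In bulk RNA of this kind, fewer cells of a type and less RNA per cell cannot be told apart.

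All 10 genes had higher levels in TNF replicates 2 and 3 than in any PBS library, whereas TNF replicate 1 lay within or below the PBS range for 9 of them. Relative to the PBS mean, the median log2 level of the 10 genes was 2.57 in TNF replicate 2 and 2.63 in TNF replicate 3, and -0.22 in TNF replicate 1. The same median over all tested genes was between 0.00 and 0.02 in the 3 TNF libraries. TNF replicate 1 was within the PBS range for 4 of the 10 genes, below it for 5 and above it for *Akr1b8*. For all tested genes, 45.2% had TNF replicate 1 within the PBS range, 24.1% had TNF replicates 2 and 3 above every PBS library and 22.0% had both below.

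**Figure D1:**
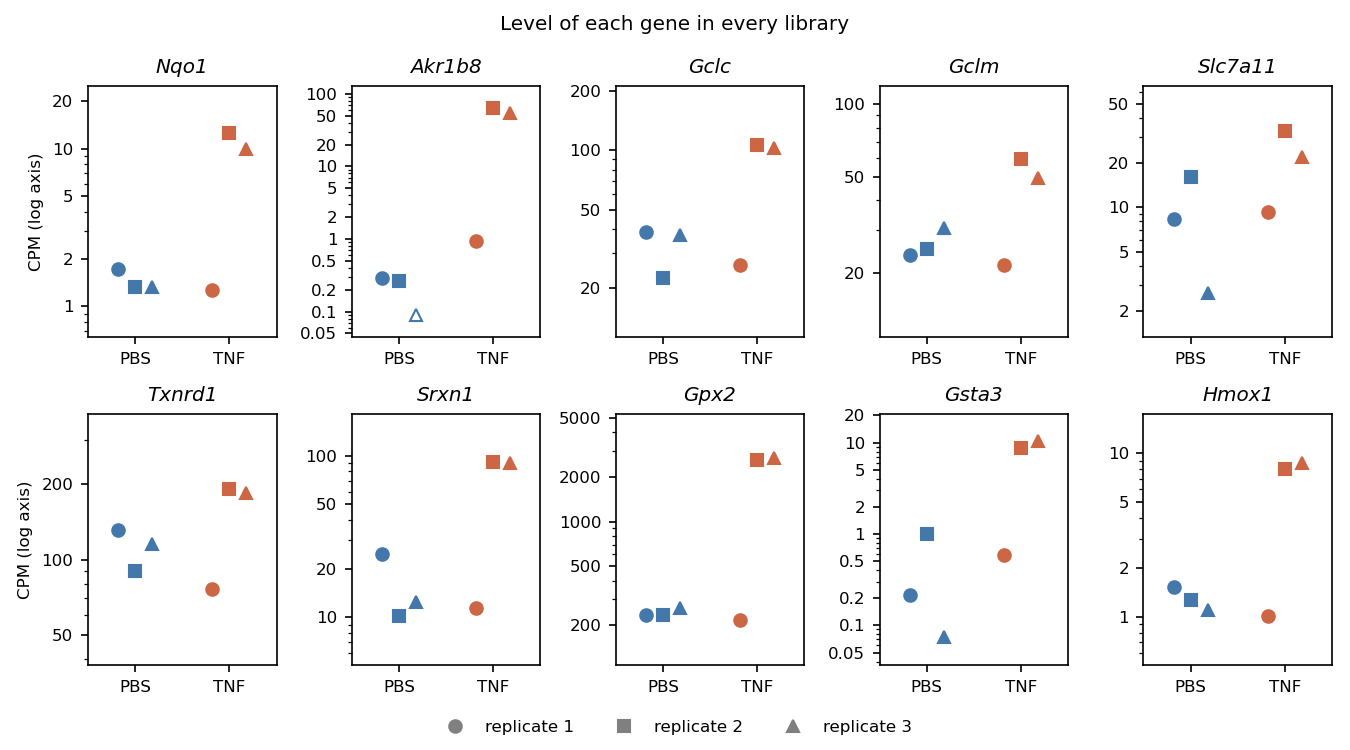
Each panel shows 1 gene, with CPM on a log axis against group and 1 point per library, the shape giving the replicate. The open triangle for *Akr1b8* stands for a count of 0 in PBS replicate 3, drawn below the lowest measured value. In every panel TNF replicates 2 and 3 lie above the PBS points, and TNF replicate 1 lies apart from them.

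Over all 6 libraries none of the 10 genes passed 5% in edgeR (Benjamini-Hochberg adjusted p under 0.05), as 0% of all 13026 genes did. In this fit 7 of the 10 genes and 1596 genes in all had an unadjusted p under 0.05, the 7 being higher in TNF as were 8.25% of all genes. DESeq2 called 3 of the 10 genes, *Nqo1*, *Akr1b8* and *Gsta3*, beside 1.86% of all genes, or 1.58% as higher. With no filter on low counts edgeR called 8 of the 10, all but *Gclm* and *Txnrd1*, beside 2.94% of all genes, of which 2.10% were higher and 0.849% lower. With limma-voom sample weights, which give a deviant library less say, 6 of the 10 were called, *Nqo1*, *Gclc*, *Slc7a11*, *Srxn1*, *Gpx2* and *Hmox1*, beside 11.5% of all genes, of which 7.06% were higher and 4.47% lower. Without TNF replicate 1, edgeR called 9 of the 10 genes, all higher in TNF, beside 9.10% of all genes called higher. The gene not called was *Slc7a11*. The median log2 fold change of the 10 genes was 2.11 with all libraries and 2.62 without TNF replicate 1, where the median over all tested genes was -0.00 and -0.01. The list was chosen on this contrast, so these counts describe it and support nothing further.

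**Figure D2:**
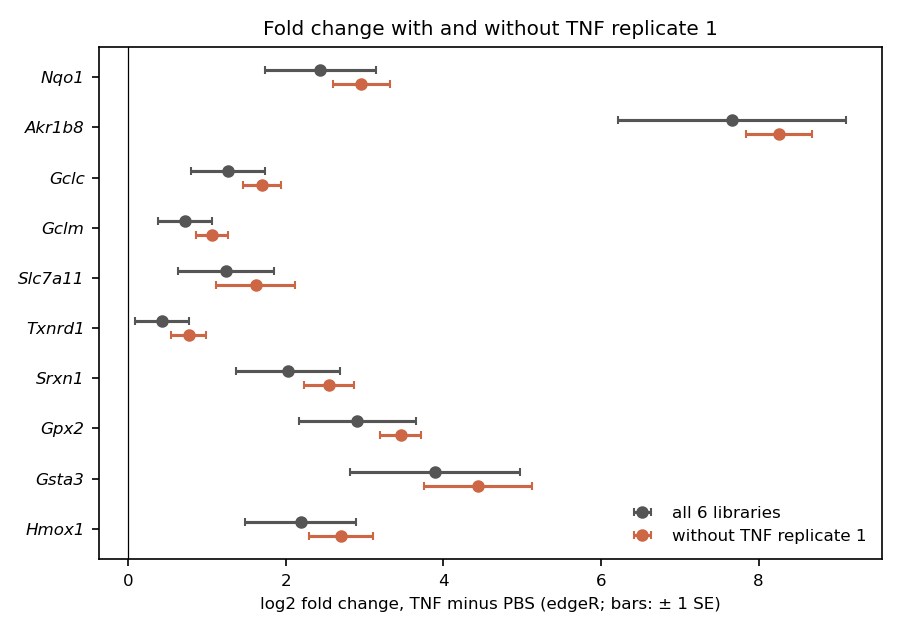
The log2 fold change (TNF minus PBS, edgeR) is shown per gene with bars of ± 1 standard error (SE), in grey for all 6 libraries and in orange without TNF replicate 1. All points lie above 0, from 0.43 for *Txnrd1* to 7.67 for *Akr1b8* with all libraries, and the bars shorten for all 10 genes without TNF replicate 1.

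*Nqo1* and *Akr1b8* encode enzymes that reduce quinones and aldehydes with NADPH or NADH. *Akr1b8* (ENSMUSG00000029762, chromosome 6, 34331054 to 34345409), an aldo-keto reductase, had 4, 4 and 0 counts in PBS replicates 1 to 3, which is 0.289, 0.267 and 0 CPM. In TNF replicates 1 to 3 it had 0.935, 63.9 and 54.6 CPM, from 11, 1307 and 678 counts. It was the only gene of the 10 for which all TNF libraries exceeded all PBS libraries, as 9.07% of tested genes did, while 7.82% had all TNF libraries below. The 8 PBS counts give a pooled level of 0.188 CPM with a 95% exact Poisson interval of 0.0812 to 0.371 CPM, which covers counting error only. The log2 fold change was 7.67 (SE 1.45), and 8.26 (SE 0.42) without TNF replicate 1, a size that depends on how such low counts are treated.

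*Nqo1* (ENSMUSG00000003849, chromosome 8, 108113835 to 108129934), NAD(P)H quinone dehydrogenase and the textbook NRF2 target, had 1.73, 1.33 and 1.32 CPM in PBS, against 1.27, 12.5 and 9.99 CPM in TNF. The 2 high TNF libraries averaged 7.69 times the PBS mean, while TNF replicate 1 lay just below the lowest PBS library. Its log2 fold change was 2.44 (SE 0.71) and 2.96 (SE 0.36) without TNF replicate 1.

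*Gclc*, *Gclm* and *Slc7a11* act in making glutathione, the main small thiol of the cell. *Gclc* (ENSMUSG00000032350, chromosome 9, 77661797 to 77701770), the catalytic subunit of the rate-limiting glutamate-cysteine ligase, had 38.4, 22.4 and 37.2 CPM in PBS, against 26.2, 106 and 103 CPM in TNF. *Gclm* (ENSMUSG00000028124, chromosome 3, 122039126 to 122065061), its modifier subunit, had 23.7, 24.96 and 30.6 CPM in PBS, against 21.6, 59.5 and 49.3 CPM in TNF. In the 2 high TNF libraries the catalytic subunit was at 3.21 times its PBS mean and the modifier at 2.06 times. The log2 fold changes were 1.27 (SE 0.47) for *Gclc* and 0.72 (SE 0.34) for *Gclm*, and 1.70 (SE 0.24) and 1.06 (SE 0.20) without TNF replicate 1. Without TNF replicate 2 they were 0.95 and 0.39.

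*Slc7a11* (ENSMUSG00000027737, chromosome 3, 49846975 to 50398070), the cystine importer that feeds glutathione synthesis, varied most within the controls among the genes above 5 CPM. It had 8.30, 16.1 and 2.65 CPM in PBS, against 9.26, 32.9 and 21.7 CPM in TNF, a 6.08-fold range among the PBS libraries. The log2 fold change was 1.24 (SE 0.61) and 1.62 (SE 0.50) without TNF replicate 1. It ranged from 0.74 without TNF replicate 2 and 0.76 without PBS replicate 3 to 1.96 without PBS replicate 2.

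*Txnrd1* and *Srxn1* belong to the thioredoxin branch, which keeps protein thiols reduced. *Txnrd1* (ENSMUSG00000020250, chromosome 10, 82669785 to 82733546), the cytosolic thioredoxin reductase, had 131, 90.0 and 115 CPM in PBS, against 76.1, 191 and 185 CPM in TNF. This was the smallest difference of the 10, with a log2 fold change of 0.43 (SE 0.35), or 0.77 (SE 0.22) without TNF replicate 1, and TNF replicate 1 was its lowest library. Without TNF replicate 2 the value was 0.19, and without TNF replicate 3 it was 0.26. *Srxn1* (ENSMUSG00000032802, chromosome 2, 151947436 to 151957687), the sulfiredoxin that repairs overoxidised peroxiredoxins, had 24.8, 10.1 and 12.4 CPM in PBS, against 11.5, 91.1 and 90.8 CPM in TNF. Its log2 fold change was 2.03 (SE 0.66) and 2.55 (SE 0.32) without TNF replicate 1.

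*Gpx2* and *Gsta3* use glutathione as a reductant or conjugate. *Gpx2* (ENSMUSG00000042808, chromosome 12, 76839107 to 76842326), the glutathione peroxidase of the gut epithelium, was the most abundant gene of the list in every library. It had 234, 234 and 263 CPM in PBS, a 1.12-fold range, and 217, 2613 and 2657 CPM in TNF. The ratio of the higher to the lower of TNF replicates 2 and 3 was smaller than that range, and they averaged 10.8 times the PBS mean. The log2 fold change was 2.91 (SE 0.75) and 3.46 (SE 0.25) without TNF replicate 1.

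*Gsta3* (ENSMUSG00000025934, chromosome 1, 21310806 to 21335885), an alpha-class glutathione transferase, was scarce, with 3, 15 and 1 counts in PBS (0.216, 1.00 and 0.0735 CPM). It had 0.595, 8.76 and 10.4 CPM in TNF, from 7, 179 and 129 counts. The log2 fold change was 3.89 (SE 1.08) and 4.44 (SE 0.68) without TNF replicate 1, and 5.42 without PBS replicate 2, which held most of its PBS counts. *Hmox1* (ENSMUSG00000005413, chromosome 8, 75820241 to 75827217), the inducible heme oxygenase that breaks heme down to biliverdin, carbon monoxide and iron, had 1.51, 1.27 and 1.10 CPM in PBS, against 1.02, 8.02 and 8.70 CPM in TNF. Its log2 fold change was 2.19 (SE 0.71) and 2.701 (SE 0.40) without TNF replicate 1.

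Of these genes 8 overlap another annotated gene, and the use of strand in counting is not given. Only *Nqo1* and *Hmox1* had no overlapping gene on either strand. Of the stretches of 75 bases in the transcripts of each gene, 0% to 9.90% also occurred in a transcript of another gene, with the highest share for *Gclm*. For *Akr1b8* this share was 0.854%.

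Levels per kilobase of exon order the genes within a library. Exon length is the union over all annotated transcripts, from 1759 bases for *Hmox1* to 15522 for *Slc7a11*. For *Gpx2* it is 3220 bases, its whole span. The length of the transcripts present was not measured, so the order depends on this choice of length. In PBS *Gpx2* was highest, at 72.6 to 81.6 CPM per kb, followed by *Txnrd1* at 12.7 to 18.5, *Gclc* at 3.58 to 6.12, *Gclm* at 2.98 to 3.84 and *Srxn1* at 1.08 to 2.64. *Gclc* and *Gclm* overlapped in this order. Below them, *Hmox1* at 0.627 to 0.861 and *Nqo1* at 0.481 to 0.630 overlapped each other and the range of *Slc7a11* (0.170 to 1.04), while *Gsta3* and *Akr1b8* were at 0.175 CPM per kb or less. In TNF replicates 2 and 3 *Gpx2* stood at 811 and 825 CPM per kb. By this measure *Akr1b8* had moved from the low end to the second place, at 32.9 and 28.1, close to *Txnrd1* at 26.9 and 26.0. *Gclc* followed at 17.0 and 16.4, *Srxn1* at 9.70 and 9.66, *Gclm* at 7.48 and 6.19, *Hmox1* at 4.56 and 4.94 and *Nqo1* at 4.56 and 3.63, where *Hmox1* and *Nqo1* were not separated in TNF replicate 2. *Slc7a11* (2.12 and 1.40) and *Gsta3* (1.53 and 1.81) came last and overlapped. In CPM, without the length, *Txnrd1*, *Gclc* and *Srxn1* were above *Akr1b8* in both libraries. *Txnrd1* had 191 and 185 CPM there, against 63.9 and 54.6 CPM for *Akr1b8*.

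Close relatives of the 10 genes gave a comparison within families; they were named for their family, outside the rule for named genes. Of the aldo-keto reductases beside *Akr1b8* on chromosome 6, *Akr1b3* (listed as *Akr1b1* in GENCODE) was at 0.04 on the log2 scale (SE 0.23, edgeR adjusted p 0.958), *Akr1b10* -0.49 (SE 0.39, adjusted p 0.636) and *Akr1b7* -0.37 (SE 0.93, adjusted p 0.897). None of the 3 passed without TNF replicate 1 either, with values of 0.14, -0.63 and -0.05. *Akr1b3* was at 2.26 to 3.29 CPM per kb in PBS and 2.60 to 3.46 in TNF, ranges that overlapped. *Hmox2*, the constitutive heme oxygenase, was at 0.27 (SE 0.24, adjusted p 0.676) and 0.39 without TNF replicate 1, and *Txnrd2*, the mitochondrial thioredoxin reductase, at -0.09 (SE 0.42, adjusted p 0.943) and -0.44. The sign of *Akr1b3*, *Akr1b7* and *Txnrd2* turned under some alternatives.

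Among glutathione peroxidases, *Gpx1*, the ubiquitous cytosolic form, was at 77.8 to 83.4 CPM per kb in PBS. In TNF replicates 1 to 3 it was at 117, 125 and 156 CPM per kb. Its PBS range was near the 72.6 to 81.6 of *Gpx2* only per kb, with exon lengths of 1445 bases for *Gpx1* and 3220 for *Gpx2*. In CPM *Gpx1* was at 112 to 120 in PBS and *Gpx2* at 234 to 263. All TNF libraries exceeded all PBS libraries for *Gpx1*. Its log2 fold change was 0.71 (SE 0.22, adjusted p 0.293) and 0.81 (SE 0.21, adjusted p 0.0225) without TNF replicate 1. *Gpx4*, which reduces lipid peroxides, was at 0.17 (SE 0.21, adjusted p 0.778) and 0.071 without TNF replicate 1, and *Gpx7* at 0.08 (SE 0.64, adjusted p 0.968) and 0.21, with at most 2.203 CPM in any library. *Gsta4*, an alpha-class transferase for lipid aldehydes, had 0.334 to 0.866 CPM in PBS and 1.78 to 2.15 CPM in TNF (log2 ratio 1.69, SE 0.64, adjusted p 0.345, and 1.79, adjusted p 0.160, without TNF replicate 1). *Txnrd3* and *Nqo2* were at 1.04 (adjusted p 0.448) and 0.69 (adjusted p 0.402) over all libraries, and passed without TNF replicate 1 at 1.47 (SE 0.34, adjusted p 0.0152) and 0.91 (SE 0.26, adjusted p 0.0392). *Txnrd3* was at 0.62 without TNF replicate 2, and *Nqo2* at 0.42 without TNF replicate 3.

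**Figure D3:**
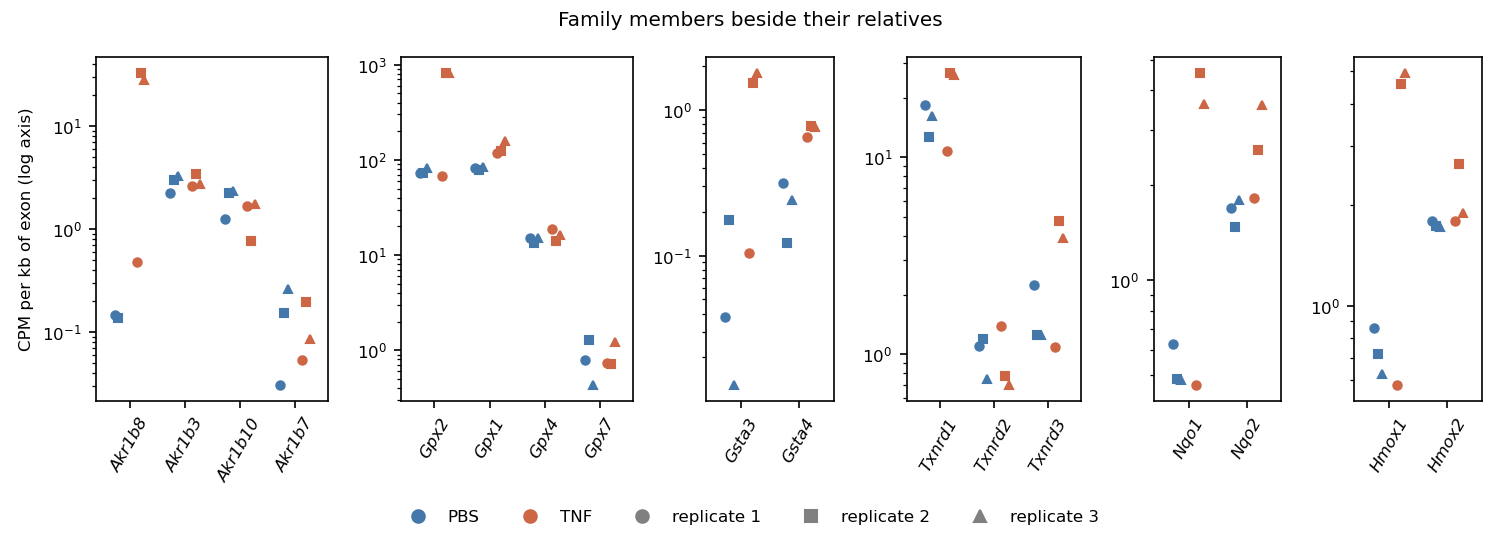
Levels in CPM per kb of exon, on a log axis, are shown for 6 genes and their relatives, with PBS in blue, TNF in orange and the shape giving the replicate; counts of 0 are not drawn. *Akr1b8* in TNF replicates 2 and 3, at 32.9 and 28.1, lies above its relatives, whereas in PBS it lies below *Akr1b3* and *Akr1b10*.

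The wider defence system was read from a list that was also chosen with earlier results of these data known. It held 97 other redox genes in 9 groups by role. Of these, 88 were tested over all 6 libraries, and 0 passed 5% in edgeR or in limma-voom without sample weights. With no filter on low counts edgeR called 8 as higher, beside 2.10% of all genes, and 1 as lower, beside 0.849%. With sample weights limma-voom called 19 as higher, beside 7.06% of all genes. At an unadjusted edgeR p under 0.05 there were 24, of which 23 were higher in TNF and 1, *Chac1*, lower. Of all 13026 genes 8.25% were higher at that p, and 521 genes were lower. DESeq2 called 5, all higher, beside 1.58%. All TNF libraries exceeded all PBS libraries for 19 of the 88 genes, beside 9.07% of all tested genes, and the reverse held for 0, beside 7.82%. Without TNF replicate 1, 90 genes were tested, of which 20 passed as higher in TNF, or 22.2%, beside 9.10% of all genes, and 3 as lower, beside 5.40%. The same 2 shares of all genes stand beside each count per role group below. The median log2 fold change of the list was 0.24, and 0.32 without TNF replicate 1. For the genes named below, the adjusted p over all alternatives reached 0.897 or more.

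**Figure D4:**
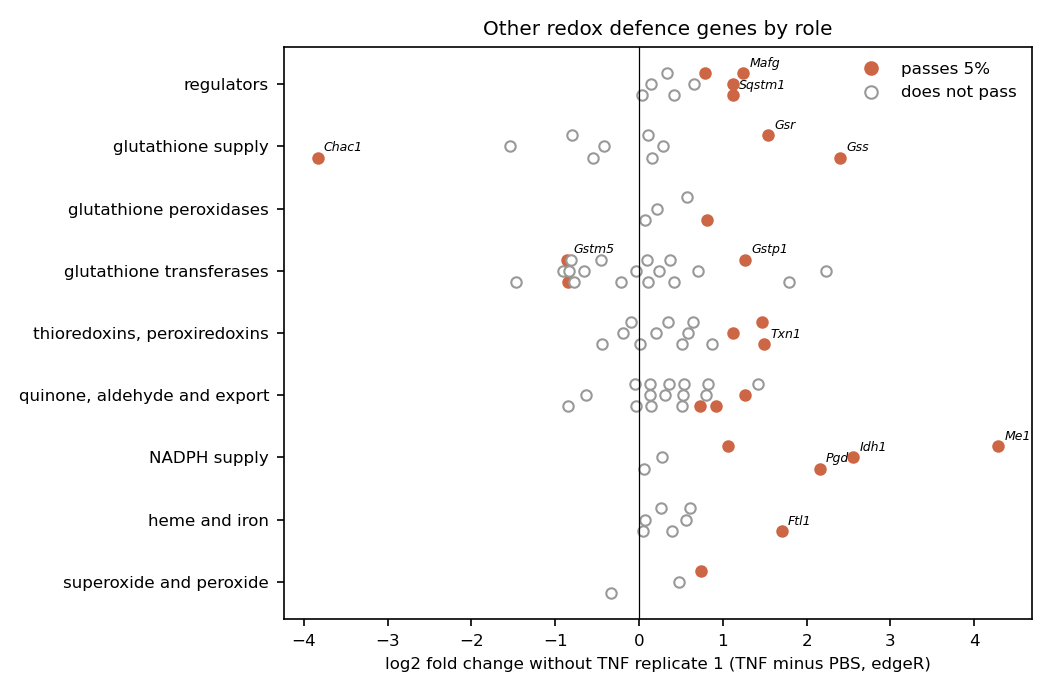
Each point is 1 of the 90 other redox genes tested without TNF replicate 1, placed by its log2 fold change (TNF minus PBS, edgeR) and its role, and filled where it passed 5%. Most filled points lie to the right of 0, led by *Me1* at 4.28, and the glutathione transferases spread to both sides.

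The NADPH supply had the highest median of the 9 groups, at 1.20 with all libraries and 1.61 without TNF replicate 1, when 4 of 6 genes passed as higher. *Idh1*, the cytosolic isocitrate dehydrogenase, had 115, 99.4 and 87.7 CPM in PBS, against 77.2, 608 and 563 CPM in TNF (log2 ratio 2.05, SE 0.61, adjusted p 0.288). Without TNF replicate 1 it was at 2.56 (SE 0.23, adjusted p 6.07e-05). *Me1*, malic enzyme, had 1.37, 0 and 1.40 CPM in PBS, from 19, 0 and 19 counts, against 2.89, 18.9 and 16.3 CPM in TNF. Its log2 fold change ran from 3.19 to 5.19 over the alternatives, a size that depends on how such low counts are treated. It was 3.79 (SE 0.97, adjusted p 0.270) over all libraries and 4.28 (SE 0.68, adjusted p 0.00200) without TNF replicate 1. The oxidative pentose phosphate enzymes *Pgd* and *G6pdx*, the latter named outside the rule as the first enzyme of that pathway, were at 1.70 (adjusted p 0.288) and 0.71 (adjusted p 0.468) over all libraries, and at 2.15 (SE 0.25, adjusted p 3.02e-04) and 1.07 (SE 0.22, adjusted p 0.00925) without that library. Without TNF replicate 2 they were at 1.08 and 0.25. *Taldo1* and *Tkt*, of the non-oxidative branch, did not pass, at 0.22 and 0.019 over all libraries and 0.28 (adjusted p 0.509) and 0.060 (adjusted p 0.922) without TNF replicate 1.

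Of the 10 genes that supply or recycle glutathione, 2 were higher and 1 lower without TNF replicate 1. *Gss*, glutathione synthetase, had 28.6, 23.2 and 19.99 CPM in PBS, against 27.4, 141 and 108 CPM in TNF, with log2 fold changes of 1.94 (SE 0.49, adjusted p 0.270) and 2.40 (SE 0.22, adjusted p 7.19e-05) without TNF replicate 1. *Gsr*, glutathione reductase, was at 1.15 (SE 0.40, adjusted p 0.324) and 1.54 (SE 0.21, adjusted p 7.51e-04), and at 0.73 without TNF replicate 2. *Chac1*, which degrades glutathione and is also known as a gene of the ER stress response, had 39.9, 28.1 and 4.48 CPM in PBS, against 13.6, 1.13 and 2.34 CPM in TNF. It was at -2.11 (SE 0.93, adjusted p 0.402), and at -3.83 (SE 0.78, adjusted p 0.00761) without TNF replicate 1. *Slc3a2*, the partner subunit of the cystine importer *Slc7a11*, was at -0.46 (SE 0.28, adjusted p 0.523) and -0.55 without TNF replicate 1.

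Of the 13 thioredoxin and peroxiredoxin genes, 3 passed as higher without TNF replicate 1. *Txn1*, cytosolic thioredoxin, had 221, 177 and 227 CPM in PBS, against 281, 478 and 679 CPM in TNF, so that also TNF replicate 1 exceeded every PBS library (log2 ratio 1.20, SE 0.33, adjusted p 0.278). Without that library it was at 1.49 (SE 0.25, adjusted p 0.00237). *Prdx1*, a peroxiredoxin, had the same order, with 208 to 251 CPM in PBS, against 321, 393 and 563 CPM in TNF, at 0.94 (SE 0.28, adjusted p 0.284) and 1.12 (SE 0.24, adjusted p 0.0103). *Txnip*, a thioredoxin inhibitor, was at 0.60 (SE 0.34, adjusted p 0.497) and 0.87 (adjusted p 0.0544), and passed with limma-voom sample weights (adjusted p 0.0317).

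Of the 23 glutathione transferase genes 20 were tested, with fold changes on both sides of 0, and their median log2 fold change was -0.02, and -0.12 without TNF replicate 1. In that fit 1 was higher, *Gstp1* (0.93 over all libraries) at 1.27 (SE 0.22, adjusted p 0.00344), and 2 were lower, *Gstm5* (-0.28 over all libraries) at -0.85 (SE 0.22, adjusted p 0.0259) and *Gstz1* (-0.31 over all libraries) at -0.84 (SE 0.26, adjusted p 0.0488). *Gstm5* was at -0.030 without TNF replicate 3, and *Gstz1* at -0.024 without TNF replicate 2. The most abundant, *Gsto1*, *Mgst3* and *Mgst1*, did not pass in either fit, at -0.13, 0.14 and 0.70 over all libraries and -0.45, 0.10 and 0.42 without TNF replicate 1.

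Among genes of quinone, aldehyde and export functions, *Abcc2* at 1.26 (SE 0.31, adjusted p 0.0210) and *Cbr1* at 0.73 (SE 0.22, adjusted p 0.0486) passed without TNF replicate 1, as did *Nqo2*. Over all libraries *Abcc2* was at 0.88 (adjusted p 0.470) and *Cbr1* at 0.73 (adjusted p 0.285), and *Abcc2* was at 0.22 without TNF replicate 2. *Cbr1*, a carbonyl reductase, was higher in all 3 TNF libraries (25.6 to 31.2 CPM) than in PBS (14.7 to 20.4 CPM). The abundant *Akr1a1*, *Aldh3a2* and *Aldh9a1* had log2 fold changes of 0.21, 0.11 and -0.02 with all libraries and 0.31, 0.36 and -0.037 without TNF replicate 1, and did not pass in either fit. Of the heme and iron genes, *Ftl1*, the ferritin light chain, was at 1.35 (SE 0.37, adjusted p 0.278) and 1.70 (SE 0.22, adjusted p 5.80e-04) without TNF replicate 1, whereas *Fth1*, the heavy chain, was at 0.27 (SE 0.30, adjusted p 0.749) and 0.26 and *Fech*, ferrochelatase, at -0.00 (SE 0.21, adjusted p 0.994) and 0.070. *Sod1*, the cytosolic superoxide dismutase, was at 0.59 (adjusted p 0.353), and 0.73 (SE 0.21, adjusted p 0.0366) without TNF replicate 1, while the mitochondrial *Sod2* and catalase (*Cat*) did not pass, at 0.22 and -0.22 over all libraries and 0.48 (adjusted p 0.182) and -0.33 (adjusted p 0.511) without TNF replicate 1.

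Of the 9 regulators, 4 passed as higher without TNF replicate 1. *Nfe2l2* itself had 31.7, 23.9 and 22.7 CPM in PBS, against 35.4, 44.0 and 36.9 CPM in TNF, so that the groups did not overlap (log2 ratio 0.57, SE 0.22, adjusted p 0.342, and 0.65, adjusted p 0.0641, without TNF replicate 1), and it passed with limma-voom sample weights (adjusted p 0.0349). *Keap1* at 1.12 (SE 0.26, adjusted p 0.0148), *Mafg*, a small MAF partner, at 1.24 (SE 0.22, adjusted p 0.00393), *Sqstm1*, the autophagy receptor that binds KEAP1, at 1.12 (SE 0.24, adjusted p 0.0108) and *Nfe2l1* at 0.79 (SE 0.20, adjusted p 0.0211) passed without TNF replicate 1. Over all libraries they were at 0.76 (adjusted p 0.463), 0.92 (adjusted p 0.337), 0.79 (adjusted p 0.411) and 0.45 (adjusted p 0.604), and without TNF replicate 2 at 0.33, 0.61, 0.54 and 0.13. *Cul3*, the ubiquitin ligase scaffold of KEAP1, was at -0.05 (SE 0.19, adjusted p 0.933) and 0.040 without TNF replicate 1, and *Bach1*, a repressor at AREs, at 0.18 (SE 0.21, adjusted p 0.763) and 0.33. *Nfe2l2* and *Bach1* were named for their role, outside the rule.

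Genes outside both lists were ranked by how closely their levels followed 1 of 2 genes of the list over the 6 libraries, as the root mean square difference in log2 level relative to the PBS mean, among 9684 genes. The nearest to *Gpx2* were *Gsdmd* (0.22), *Anxa2* (0.24), *Reg3g* (0.26), *Cpne8* (0.28) and *Sting1* (0.35). *Gsdmd*, which encodes a pore-forming protein of pyroptosis, had 7.07 to 8.28 CPM in PBS, against 5.78, 68.8 and 66.4 CPM in TNF. Near to *Akr1b8* were *Ido1* (0.77), *AW112010* (0.80), *Wfdc18* (1.12) and *Cxcl16* (1.20). *Ido1*, an enzyme of tryptophan breakdown, had 0.577, 0 and 0 CPM in PBS, against 0.935, 37.0 and 28.7 CPM in TNF. The ranked genes needed a mean log2 CPM of at least 2, which *Ido1* and *Wfdc18* reached only through TNF replicates 2 and 3. In PBS these 2 genes and *Akr1b8* were so scarce that their log2 levels depend on the prior count. Within the list, *Nqo1* and *Hmox1* were the closest pair (0.21), and *Gclm* and *Txnrd1* the next (0.28).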

How the data were processed

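Sorted PCs of 6 mice, 3 per group, are stated to have given 1 RNA-seq library each. For TNF replicate 3, which had Y-linked counts beside *Xist*, this was not tested. The deposited table holds raw counts per Ensembl gene, and per the labels the submitters' processing notes name FastQC, Trimmomatic 0.39, STAR 2.7.10a, DESeq2 and build mm39. For the counting step, the strand setting and multi-mapping reads, nothing is stated in the sources used here. Of 55414 identifiers, 54749 matched GENCODE for GRCm39, the same assembly.

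TNF was compared with PBS in edgeR 4.0.16 (R 4.3.3) with the quasi-likelihood test, two-sided, on group alone. Low-count genes were removed with filterByExpr (at least 10 counts, and 15 in total), libraries were scaled with TMM factors, and genes were called at a Benjamini-Hochberg adjusted p under 0.05. CPM use the same TMM-scaled library sizes. Log2 levels relative to the PBS mean use a prior count of 2. The SE was taken from the log2 fold change and the F statistic. DESeq2 1.42.0 and limma-voom (limma 3.58.1) were alternatives. The scripts were tested on simulated data. In these CPM the limit for a count of 0, taken as 3 counts, was 0.147 to 0.255 CPM.

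The 10 genes, the list of 97 and the marker lists were chosen with earlier results of these data known. The text names all 10 genes, per role group the 3 most abundant tested genes and up to 3 that passed without TNF replicate 1, and the 5 genes nearest to *Akr1b8* and *Gpx2* with a mean log2 CPM of at least 2. Of these, 1 gene is not reported here. Libraries of a group were no duplicates (chi-square per degree of freedom 27.3 or more). Nothing beyond 1 mouse per library is stated, so batches could not be examined.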

Additional observations from a re-analysis of the deposited data

How the results depend on the processing

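The fold changes of the 10 genes were above 0 under all 15 alternatives, all planned. In all 147 values that could be computed they moved by less than 1 SD of the log2 levels in the TNF libraries, a spread that TNF replicate 1 widens. That SD exceeded the fold change itself for *Txnrd1* (0.75 against 0.43) and *Gclm* (0.77 against 0.72). For these 2 genes a loss of the whole difference would not have counted as a move. Without TNF replicate 2 they fell to 0.19 and 0.39. The number of genes past 5% was 0 with all 6 libraries in edgeR, and 690 with no low-count filter, 242 with DESeq2 and 1501 with limma-voom with sample weights. Of the 10 genes 8, 3 and 6 passed in these 3 settings, beside 2.94%, 1.86% and 11.5% of all genes. Of the other redox genes 8, 5 and 19 passed as higher, beside 2.10%, 1.58% and 7.06%. With no filter 1 passed as lower, beside 0.849%. Leaving out 1 library gave 0 to 1980 genes, 0 to 9 of the 10, 0 to 20 other redox genes higher and 0 to 3 lower, with every maximum without TNF replicate 1 and 0 without any other library. Fewer samples and another variance estimate enter these settings, and the cause was not tested. The replicate number as a block gave 0 genes; same-numbered libraries did not deviate together (correlations -0.01, -0.07 and 0.03), only 1 of 6 libraries correlated best with its own number, and the numbers were not taken as pairs. Without library factors the median log2 fold change of all genes was -0.11.
Signs turned under at least 1 alternative for 34 of the 88 other redox genes, none of which passed 5% under any alternative. Of the genes named in the text there were 13. With library size alone *Gpx7* was at -0.047, *Tkt* at -0.023 and *Akr1b3* at -0.045, with upper-quartile factors *Tkt* at -0.041 and *Akr1b3* at -0.029, with no filter *Tkt* at -0.011, and with sample weights *Cul3* at 0.013, *Mgst3* at -0.067, *Fech* at 0.048 and *Akr1b3* at -0.057. Over the fits that leave out 1 library the ranges were -0.14 to 0.040 for *Cul3*, -0.27 to 0.53 for *Gpx7*, -0.058 to 0.24 for *Mgst3*, -0.45 to 0.10 for *Gsto1*, -0.13 to 0.36 for *Aldh3a2*, -0.077 to 0.053 for *Aldh9a1*, -0.23 to 0.30 for *Tkt*, -0.16 to 0.077 for *Fech*, -0.15 to 0.48 for *Sod2*, -0.40 to 0.12 for *Cat*, -0.13 to 0.14 for *Akr1b3*, -1.12 to 0.24 for *Akr1b7* and -0.44 to 0.090 for *Txnrd2*. The cause was not tested.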
